A study of Mus musculus with 58 samples.

Results

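The genotype effect described here is that of a heterozygous Tbl1xr1 knock-in allele in the prefrontal cortex of mouse pups raised on lithium, set against wild-type pups given the same drug. The members were the 18 libraries whose column names carry the heterozygous lithium or the wild-type lithium code, out of 58 libraries in the study. They comprise 10 libraries of Tbl1xr1 knock-in heterozygotes (HT), 5 female and 5 male, and 8 libraries of wild-type mice (WT), 4 female and 4 male. All are C57BL/6J mice, all were taken at postnatal day 25, and all had received lithium through the milk of their mothers for 3 weeks, from day 3 to day 24. The other 40 libraries are HT and WT pups, 10 of each, given fluoxetine or vehicle in the same way. They serve for comparison, and in the fit they also add to the estimate of spread behind the lithium p-values. The labels name the knock-in without its change in the protein, and they give no litter and do not say whether 2 libraries can come from the same mouse, so the p-values below rest on library-to-library spread, part of which may be technical.

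Tbl1xr1 encodes a WD40-repeat protein of the NCoR/SMRT complex, in which nuclear receptor corepressors and histone deacetylase 3 hold genes of thyroid hormone, retinoic acid and other nuclear receptors silent until ligand arrives. Its close relative Tbl1x sits in the same complex, and both proteins help exchange corepressors for coactivators and have been tied to transcription by beta-catenin. Lithium, used to treat bipolar disorder, inhibits glycogen synthase kinase 3, which marks beta-catenin for destruction, and inositol monophosphatase, which recycles inositol. Heterozygous TBL1XR1 mutations in people cause intellectual disability, with autism or Pierpont syndrome in some of them.

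Values below are normalised read counts, that is, reads per gene divided by 1 size factor per library, unless a log2 difference is named. A log2 difference is HT minus WT on the log2(value + 1) scale, with females and males given equal weight, and its error is the standard error (SE) from limma, fitted to 16606 genes over all 58 libraries. A gene was called at a Benjamini-Hochberg adjusted p under 0.05. The 18 libraries held 23.1 to 34.3 M reads in HT and 24.7 to 31.7 M reads in WT.

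Under lithium, 2 of the 16606 genes were called, which is 0.012% of them, and both were higher in HT. They are Tbl1xr1 itself and Gm43672, a long intergenic noncoding RNA that begins beside it. Both were also among the 3 genes called under vehicle (0.0181%) and the 165 called under fluoxetine (0.994%), so neither call was particular to lithium. Under lithium no gene was called lower in HT. Without adjustment, 887 genes had a limma p under 0.05, 432 of them higher and 455 lower (2.74%), together 5.34% of the genes tested (upper-quartile rescaling gave 600 higher and 294 lower). The median gene with a mean count of at least 50 differed by 0.0456 log2 units in either direction, against a median SE of 0.0637.

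Tbl1xr1 (GRCm38, chr3:22076652-22216594, plus strand) was read first, as the targeted gene. The labels give no expected level of its mRNA, so its counts cannot check the genotype labels. In HT females its counts were 2369, 2468, 2641, 2518 and 2381, and in HT males 2541, 2451, 2516, 2506 and 2531. In WT females they were 2043, 2087, 2091 and 2209, and in WT males 1948, 2055, 2279 and 1987. Every HT library lay above every WT library. The group means were 2492 in HT and 2087 in WT, a difference larger than the spread between libraries (log2 difference 0.26 ± 0.036 SE, adjusted p = 2.2e-05). The rise was called in males alone (0.28 ± 0.05, adjusted p = 0.00963) and not in females alone (0.23 ± 0.05, adjusted p = 0.236), the male call was lost without any 1 of HT males 3 and 5 and WT males 1, 2 and 4 (adjusted p up to 0.195), and the difference between the sexes was -0.05 ± 0.071 (adjusted p = 1).

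Gm43672 (chr3:22074412-22076142, minus strand) lies head to head with Tbl1xr1, with 510 bases between their starts. Its counts were 298, 323, 356, 321 and 322 in HT females and 329, 278, 351, 333 and 367 in HT males. In WT they were 264, 217, 211 and 234 in females and 213, 235, 272 and 214 in males. Again the groups did not overlap, and no other gene had every HT library above every WT library (2 of 16606 genes, 0.012%). Gm43672 averaged 328 in HT and 232 in WT, a 1.41-fold rise (0.50 ± 0.065, adjusted p = 9.01e-06), and it was called in females (0.49 ± 0.092, adjusted p = 0.0417) and in males (0.51 ± 0.092, adjusted p = 0.00963). With 1 lithium library left out at a time, the difference over both sexes stayed called in all 18 fits (0.47 to 0.53). The call in females was lost in 10 of the fits, those without HT females 2 to 5, HT males 1 and 4, WT females 2 to 4 or WT male 2 (0.44 to 0.49, adjusted p up to 0.366). The call in males was lost in 5, those without HT males 3 and 5 or WT males 1, 2 and 4 (adjusted p up to 0.195). The sources used here give no function for Gm43672.

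Both neighbours of that gap were higher together, so the reference sequence of the Tbl1xr1 promoter, whose first 250 bases lie inside it, is shown with that of Tbl1x. Each run below is RefSeq sequence of GRCm38.p6, plus strand, from 250 bases before to 50 bases after the start that RefSeq annotates, with CpG dinucleotides in capitals. The first is chr3:22076402-22076701 and the second chrX:77510977-77511276. The RefSeq start of Tbl1xr1 is the GENCODE start, and that of Tbl1x lies 214 bases after the GENCODE start.
Tbl1xr1: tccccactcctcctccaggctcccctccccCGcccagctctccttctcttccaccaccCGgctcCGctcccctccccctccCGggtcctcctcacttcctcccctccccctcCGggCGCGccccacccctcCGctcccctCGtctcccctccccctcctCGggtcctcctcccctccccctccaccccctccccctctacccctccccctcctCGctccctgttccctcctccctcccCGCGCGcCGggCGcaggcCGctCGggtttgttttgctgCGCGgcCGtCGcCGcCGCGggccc
Tbl1x: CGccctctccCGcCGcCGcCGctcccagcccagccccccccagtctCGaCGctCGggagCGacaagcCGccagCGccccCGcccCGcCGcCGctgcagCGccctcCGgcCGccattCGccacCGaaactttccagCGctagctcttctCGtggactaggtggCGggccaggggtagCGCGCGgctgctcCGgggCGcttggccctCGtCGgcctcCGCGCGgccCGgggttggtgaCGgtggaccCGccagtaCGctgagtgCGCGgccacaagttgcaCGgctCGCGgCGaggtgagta
The Tbl1xr1 window holds 25 CpGs and 76.3% G or C, and the Tbl1x window 43 CpGs and 75.3%, where the median of 32851 RefSeq promoters is 7 CpGs. The Tbl1xr1 window carries the run CCCCTCCC at 8 places, some of them overlapping, and the Tbl1x window at 0. That run, looked for after its repeats had been seen, was in 12.2% of promoters on either strand. Neither window matched the nuclear receptor half-site AGGTCA (16.3% of promoters), the TCF/LEF core CTTTGA (16%) or the CREB site TGACGTCA (1.79%), each searched on both strands. The shorter CREB half-site TGACG, which is part of the full site, was found in the Tbl1x window only (20.8% of promoters). Gm43672 had no entry in the promoter table.

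Within 1000000 bases of Tbl1xr1 there were 2 more expressed neighbours, both chosen after their values were seen. The noncoding RNA Gm43674 (chr3:21997678-21998468, minus strand), 78184 bases away, averaged 37.5 in HT and 30.2 in WT under lithium (0.31 ± 0.12, adjusted p = 0.831). Its log2 difference was 0.46 (adjusted p = 0.193) under vehicle and 0.64 (adjusted p = 0.00181) under fluoxetine, in libraries that share none with lithium. The pseudogene 7530428D23Rik, 275879 bases away, averaged 10 in HT and 8.31 in WT (0.30 ± 0.25, adjusted p = 0.937).

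Tbl1x, the paralog on the X chromosome (chrX:77511013-77662983), was the next gene by p. Its counts were 2576, 2313, 2625, 2535 and 2496 in HT females and 2488, 2621, 2386, 2483 and 2499 in HT males. They were 2151, 2348, 2436 and 2174 in WT females and 2177, 2245, 2146 and 2370 in WT males. All 10 HT libraries lay above the WT mean of their own sex, and 8 lay above every WT library. The means were 2502 in HT and 2256 in WT (0.15 ± 0.032, adjusted p = 0.108), which did not pass. It passed without HT female 2 (0.16, adjusted p = 0.0228), without WT female 3 (0.17, adjusted p = 0.0283) and without WT male 4 (0.16, adjusted p = 0.0412). It was called under vehicle (0.18 ± 0.03, adjusted p = 0.00107), where 3 genes were called (0.0181%), and under fluoxetine (0.16 ± 0.03, adjusted p = 0.0071), where 165 were (0.994%), and the lithium difference minus the vehicle difference was -0.03 ± 0.044 (adjusted p = 0.998). With the level of olfactory bulb genes in each library as a covariate, the lithium difference was 0.17 (adjusted p = 0.00224). The sources used here do not say how reads matching both paralogs were split.

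**Figure D1:**
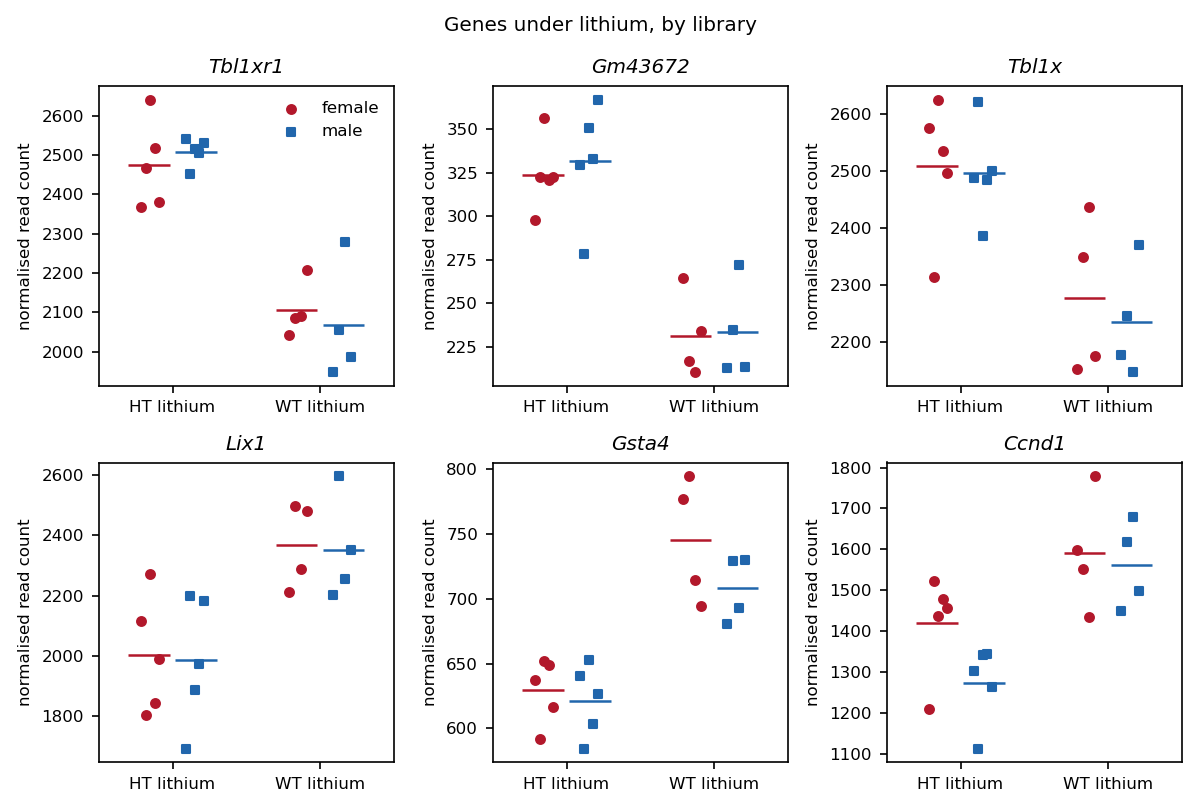
Normalised read counts of 6 genes in each HT lithium library (left) and WT lithium library (right); circles are females, squares males, and bars the means of each sex, on axes that do not start at 0. Tbl1xr1 and Gm43672 are higher in every HT library than in any WT library, Gsta4 is lower in every one, and Tbl1x, Lix1 and Ccnd1 overlap.

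Of the genes that were higher in HT without being called, 5 followed Tbl1x by p. Hsd11b1, whose enzyme regenerates active glucocorticoid inside cells, had counts of 377, 490, 435, 471 and 537 in HT females and 458, 325, 457, 430 and 423 in HT males. WT females had 300, 428, 236 and 418, and WT males 270, 447, 342 and 265. The HT and WT counts of Hsd11b1 overlapped, with 9 of 10 HT libraries above the WT mean of their sex (0.41 ± 0.10, adjusted p = 0.407). Vwa5b1, which encodes a protein with a von Willebrand factor A domain, ranged from 161 to 294 with a median of 216 in HT and from 148 to 199 with a median of 173 in WT (0.39 ± 0.099, adjusted p = 0.407), and 8 HT libraries lay above every WT one. Phyhd1, named for its phytanoyl-CoA dioxygenase domain, averaged 254 in HT and 192 in WT (0.40 ± 0.10). Parvg, the gamma parvin of blood-derived cells that links integrins to actin, averaged 137 in HT and 107 in WT (0.35 ± 0.091). The noncoding RNA 2900052N01Rik averaged 809 in HT and 655 in WT (0.30 ± 0.076). Each of the last 3 had an adjusted p of 0.407.

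On the lower side, 8 genes were read and none was called. Gsta4, a glutathione transferase that clears the lipid aldehyde 4-hydroxynonenal, had counts of 637, 592, 652, 649 and 617 in HT females and 641, 584, 653, 603 and 627 in HT males. In WT it had 777, 795, 715 and 694 in females and 681, 729, 693 and 730 in males. Gsta4 was the only 1 of the 16606 genes (0.00602%) in which every HT library lay below every WT library, and its log2 difference was -0.21 ± 0.052 (adjusted p = 0.407).

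Lix1 (chr17:17402672-17459387) had the smallest p of the lower genes. Its counts were 2115, 1805, 2271, 1846 and 1989 in HT females and 1693, 2200, 1887, 1975 and 2183 in HT males. WT females had 2213, 2497, 2288 and 2480, and WT males 2203, 2596, 2256 and 2352. HT female 3 was the 1 HT library within the WT range, and the other 9 lay below it (-0.25 ± 0.054, adjusted p = 0.138). Without that library Lix1 passed (-0.27, adjusted p = 0.047).

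Ccnd1, the cyclin D1 that drives cells out of G1 and is a known beta-catenin target, had counts of 1211, 1523, 1438, 1478 and 1456 in HT females and 1302, 1113, 1342, 1344 and 1264 in HT males. WT females had 1598, 1553, 1436 and 1779, and WT males 1450, 1618, 1679 and 1499. The HT males all lay below every WT library, while most HT females lay inside the WT range (-0.23 ± 0.06, adjusted p = 0.407). With the olfactory bulb covariate Ccnd1 passed (-0.27 ± 0.052, adjusted p = 0.0133).

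The remaining 5 lower genes differed by less or were sparser. Wdr1, which helps cofilin take actin filaments apart, averaged 4240 in HT and 4504 in WT (-0.09 ± 0.023). Fam124a averaged 1006 in HT and 1115 in WT (-0.15 ± 0.038), and both it and Wdr1 had an adjusted p of 0.407. The orphan receptor gene Gpr165 averaged 142 in HT and 174 in WT (-0.30 ± 0.08, adjusted p = 0.457). The aldo-keto reductase gene Akr1b10 averaged 290 in HT and 338 in WT, with 8 of 10 HT libraries below every WT library (-0.22 ± 0.061, adjusted p = 0.469). The noncoding RNA AC171111.1 averaged 47.1 in HT and 72.7 in WT, with 9 HT libraries below every WT library (-0.61 ± 0.17, adjusted p = 0.457).

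**Figure D2:**
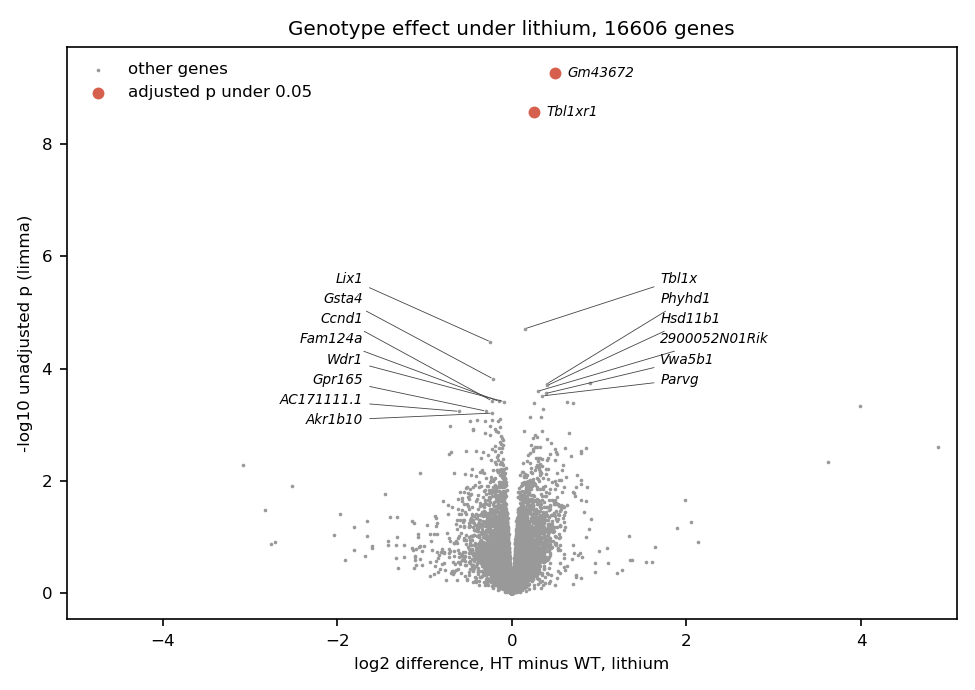
Each point is 1 of 16606 genes, with its log2 difference between HT and WT under lithium on the x axis and -log10 of its unadjusted limma p on the y axis. Tbl1xr1 and Gm43672, in red, stand apart at log2 differences of 0.26 and 0.50, and the 14 other labelled genes did not pass the adjusted threshold of 0.05.

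The same genes were read between HT and WT in the vehicle and fluoxetine libraries. Their levels there did not enter the lithium differences, but the libraries set part of the spread behind the p by which the genes were chosen. Of the 14 genes chosen for lithium that were not called there, 13 had the same direction under vehicle, 9 of them at an unadjusted limma p under 0.05. Of all genes tested, 55.1% had the same direction, 5.76% had such a p under vehicle and 3.9% had both. Of the 887 genes with such a p under lithium, 64% had the same direction under vehicle and 10.5% had both. Under fluoxetine 12 of the 14 had the same direction, 5 of them at such a p, where 48.6% of all genes had the same direction, 18.3% had such a p and 7.82% had both. Of the 887 genes, 49.3% had the same direction under fluoxetine. At such a p there, 87 of them had the same direction and 82 the opposite one. The 5 genes that met this in both other treatments were Tbl1x, Hsd11b1, Vwa5b1, Gsta4 and Gpr165. All 3 contrasts share 1 estimate of each gene's spread, so a gene with a small spread tends to a small p in each of them.

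Under vehicle, the log2 difference of Hsd11b1 was 0.30 ± 0.095 (adjusted p = 0.551) and under fluoxetine 0.31 ± 0.095 (adjusted p = 0.0734). For Vwa5b1 these were 0.37 ± 0.093 (adjusted p = 0.255) and 0.33 ± 0.093 (adjusted p = 0.0584). Gsta4 stood at -0.16 ± 0.049 (adjusted p = 0.529) and -0.14 ± 0.049 (adjusted p = 0.127), and Gpr165 at -0.32 ± 0.076 (adjusted p = 0.193) and -0.19 ± 0.076 (adjusted p = 0.158). Of these 4 genes, none passed over all genes in any of the treatments. With the olfactory bulb covariate the 3 differences of Hsd11b1 were 0.32 under lithium, 0.22 under vehicle and 0.24 under fluoxetine, and those of Gsta4 were -0.23, -0.17 and -0.15 in the same order.

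Among the other genes of the 14, Phyhd1, Wdr1 and Akr1b10 were near 0 outside lithium. Phyhd1 differed by 0.05 ± 0.094 under vehicle and -0.03 ± 0.094 under fluoxetine, Wdr1 by -0.01 ± 0.022 and -0.01 ± 0.022, and Akr1b10 by 0.08 ± 0.057 and 0.02 ± 0.057. The lithium difference minus the vehicle difference was 0.36 ± 0.14 for Phyhd1, -0.07 ± 0.032 for Wdr1 and -0.30 ± 0.084 for Akr1b10, each with an adjusted p of 0.998. Lix1 was not near 0 under vehicle, where it differed by -0.19 ± 0.051, and it differed by -0.07 ± 0.051 under fluoxetine.

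**Figure D3:**
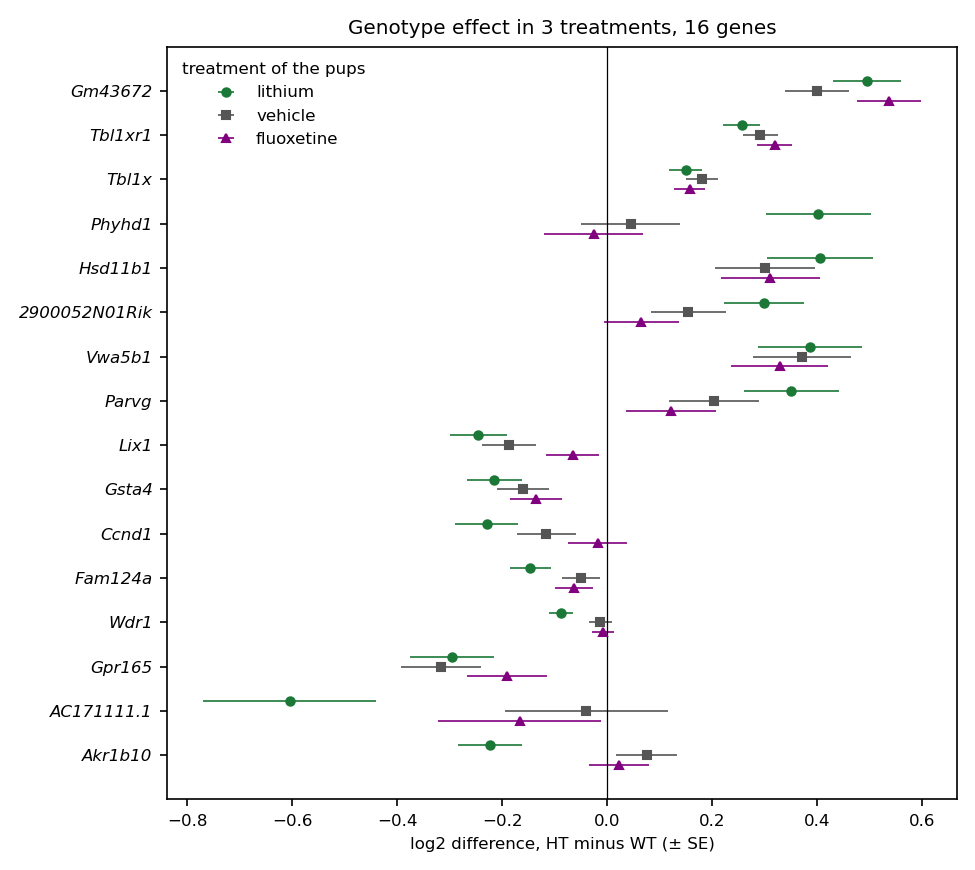
Log2 difference between HT and WT, with its standard error, of the 16 genes read for lithium, in pups given lithium (green circles), vehicle (grey squares) or fluoxetine (purple triangles). Hsd11b1, Vwa5b1, Gsta4 and Gpr165 keep their side of 0 in all 3 treatments, while Akr1b10 is below 0 under lithium and above 0 in the other 2.

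Across all genes the genotype effect under lithium differed from that under vehicle for 0 genes by limma's interaction test, while 609 genes (3.67%) had an unadjusted p under 0.05 and DESeq2 called 4. The 3 smallest p belonged to Kctd3, Ntsr1 and Akr1b10. Kctd3, an accessory subunit of HCN channels, differed by -0.06 ± 0.028 under lithium and 0.08 ± 0.027 under vehicle (interaction -0.14 ± 0.039, adjusted p = 0.998). Ntsr1, the neurotensin receptor that marks corticothalamic neurons of layer 6, differed by -0.31 ± 0.092 under lithium and 0.14 ± 0.086 under vehicle (interaction -0.45 ± 0.13, adjusted p = 0.998). Across 13696 genes with a mean count of at least 50, the lithium and vehicle effects correlated at r = 0.315, a description over genes that share libraries and tissue content.

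Against fluoxetine, 1 gene differed in its genotype effect (0.00602%), and 2161 genes (13%) had an unadjusted p under 0.05. The processed transcript Gm15663 (chr10:105573953-105583874) averaged 163 in HT and 195 in WT under lithium (-0.25 ± 0.072). Under fluoxetine its log2 difference was 0.31 ± 0.068, so that the interaction was -0.55 ± 0.098 (adjusted p = 0.0131), or -0.52 (adjusted p = 0.0554) without WT male 3. The antisense transcript 1600020E01Rik (interaction 0.62 ± 0.13) and Rab34, a GTPase needed for primary cilia (0.66 ± 0.15), followed with an adjusted p of 0.141 each, and the first of them passed without HT female 4 (0.66, adjusted p = 0.0455). Of the 165 genes called between HT and WT under fluoxetine, 85 (51.5%) had the same direction under lithium, beside 48.6% of all genes tested. Those also called under lithium were Tbl1xr1 and Gm43672, the only 2 genes called there. The median size of the log2 difference of the 165 genes was 0.0413 under lithium and 0.212 under fluoxetine, where the second value was used to choose them. The lithium and fluoxetine effects correlated at r = 0.0955 over the same 13696 genes.

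The sexes were also read apart. In females 1 gene was called (0.00602%), in males 2 (0.012%), and no gene was called for the difference between them (374 genes, 2.25%, at an unadjusted p under 0.05, and 1 called by DESeq2). Srbd1 was the third gene by p in females (-0.33 ± 0.079, adjusted p = 0.38) and Gpr165 the third in males (-0.50 ± 0.11, adjusted p = 0.275). The smallest p for the difference belonged to Acer2, a Golgi ceramidase. Its counts were 207, 198, 156, 225 and 230 in HT females and 133, 148, 121 and 112 in WT females, which did not overlap (112 genes, 0.674%, had every HT female above every WT female), and 176, 151, 183, 78.1 and 96.2 in HT males and 151, 219, 125 and 182 in WT males, which did. Its female minus male difference was 1.01 ± 0.27, with an adjusted p of 1. Anapc10, a subunit of the anaphase-promoting complex (-0.37 ± 0.098), and Bbof1, a basal body protein (-0.61 ± 0.17), came next, also with an adjusted p of 1.

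Marker sums of other brain regions differed between libraries, and these values stand beside the gene groups that follow. Cortical markers were present in all 18 libraries, with Slc17a7, the glutamate transporter of cortical neurons, at 37860 to 50420 in HT and 36430 to 49780 in WT. The summed count of 12 olfactory bulb genes ran from 7451 to 40160 with a median of 9977 in HT and from 8648 to 39430 with a median of 16590 in WT. All 12 had a log2 difference below 0, with a median of -0.95 that ran from -1.32 without HT male 2 to -0.60 without WT male 4, and 0 had an unadjusted p under 0.05. Among them Eomes ran from 1 to 1220 in HT and from 11.1 to 1147 in WT. Under vehicle and fluoxetine the same 12 genes were all below 0 too, with medians of -0.74 and -0.85.

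Single libraries stood apart in markers of other tissues. HT male 1 had a summed count of 25760 over 9 choroid plexus genes, against 414 in the next HT library and 425 in the highest WT library. HT male 1 also had a normalised count of 22670 for Ttr, the choroid plexus carrier of thyroid hormone. HT female 2 had the highest sum of 14 striatal genes of all 58 libraries, 28650, with 17000 in the next HT library and 13530 in the highest WT library. With both left out, Tbl1xr1 and Gm43672 were still called and Tbl1x passed as well (0.17 ± 0.033, adjusted p = 0.0428). In bulk tissue, fewer cells of a type and less RNA per cell cannot be told apart.

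**Figure D4:**
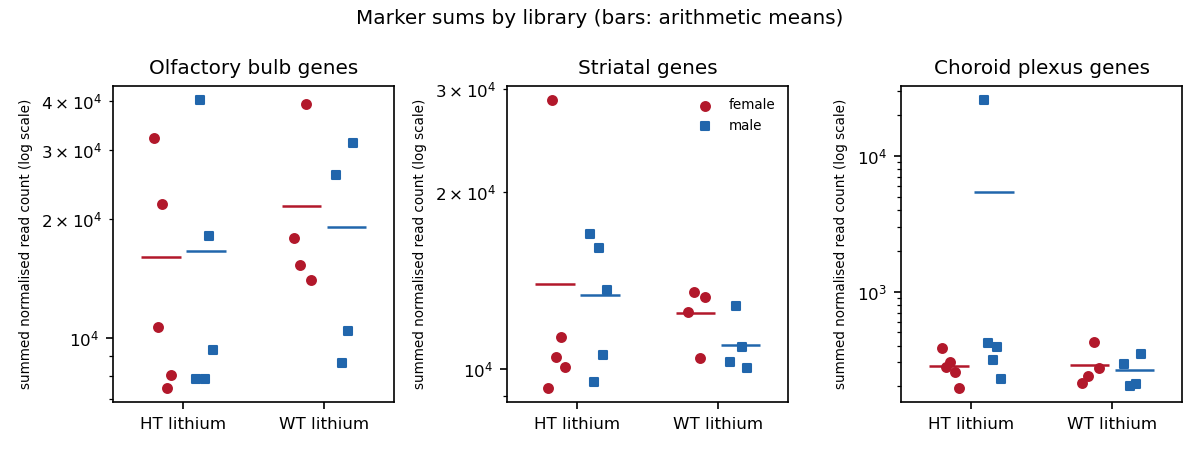
Summed normalised read counts of olfactory bulb, striatal and choroid plexus genes in each HT lithium library (left) and WT lithium library (right), on log axes; circles are females, squares males and bars arithmetic means by sex. The olfactory bulb sums spread from 7451 to 40160 over both genotypes, and HT male 1 stands at 25760 in the choroid plexus panel.

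The gene groups below are described by how many members lay above 0, and by their median, beside all genes tested, of which 48% lay above 0 under lithium with a median of -0.0034, 50.6% under vehicle and 48.6% under fluoxetine. No member of any of the 37 lists was called under lithium other than Tbl1xr1. The 12 genes of the NCoR/SMRT complex divided into 6 above and 6 below 0, with a median of -0.0008 that upper-quartile rescaling put at 0.0135, and 11 lay above 0 without WT male 4. After Tbl1xr1 and Tbl1x, the smallest p were those of the corepressor Ncor1 (-0.06 ± 0.043) and the deacetylase Hdac4 (0.05 ± 0.057). Of 22 thyroid hormone and retinoid receptors and targets, 14 lay above 0 (median 0.03, and -0.01 with the olfactory bulb covariate) and none had an unadjusted p under 0.05. Hairless (Hr), a thyroid hormone target and corepressor, averaged 1337 in HT and 1190 in WT (0.16 ± 0.089, adjusted p = 0.915).

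In the pathways on which lithium acts, no gene was called. Of 13 genes of beta-catenin and its destruction complex, 5 lay above 0 (8 under upper-quartile rescaling), between Btrc at -0.05 and Dvl1 at 0.08, and 0 had an unadjusted p under 0.05. Of 18 Wnt transcription factors and feedback targets, 7 lay above 0 (median -0.02). Besides Ccnd1, the feedback inhibitor Nkd1 had an unadjusted limma p under 0.05 and averaged 497 in HT and 566 in WT (-0.19 ± 0.092, adjusted p = 0.915), and all 10 HT libraries lay below the WT mean of their sex for both genes. The Wnt receptor gene Lgr5 averaged 363 in HT and 515 in WT (-0.81 ± 0.57), with 1343 in WT female 3, the WT library with the highest olfactory bulb sum. Of 11 inositol genes tested, 3 lay above 0 (6 under upper-quartile rescaling). Inpp1, the inositol polyphosphate phosphatase that lithium also inhibits, averaged 873 in HT and 926 in WT (-0.08 ± 0.039, adjusted p = 0.915), and the inositol transporter Slc5a3 averaged 762 in HT and 838 in WT (-0.15 ± 0.13).

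Heat shock genes lay on the other side of 0 from the vehicle pups. All 12 were below 0 under lithium (median -0.05), while 11 were above 0 under vehicle (median 0.05) and 8 under fluoxetine (median 0.09). Hsp90ab1, the constitutive cytosolic HSP90, ranged from 30795 to 34097 in HT and from 32003 to 38342 in WT, and all 10 HT libraries lay below the WT mean of their sex (-0.10 ± 0.041, adjusted p = 0.872). Hspa1b, the inducible HSP70, had counts of 312, 238, 200, 277 and 341 in HT females and 269, 169, 109, 127 and 129 in HT males. It had 432, 270, 302 and 234 in WT females and 281, 207, 267 and 250 in WT males, and 4 of the HT males lay below every WT library (-0.44 ± 0.17, adjusted p = 0.831). Of the 12 interaction tests against vehicle, 4 had an unadjusted limma p under 0.05, all lower under lithium, where 1.75% of all genes did. These were Hspa1b (-0.63), Hsp90ab1 (-0.14), the mitochondrial chaperonin Hspd1 (-0.10) and the constitutive Hspa8 (-0.17), and the adjusted p was 0.998 for each. With each lithium library left out in turn, 0 to 2 of the 12 lay above 0, and with all 3 tissue covariates 0 did. The summed count of the list overlapped, at 121200 to 139700 in HT and 125500 to 155200 in WT.

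The list of unfolded protein response and integrated stress response genes gave like counts. Under lithium 5 of 21 lay above 0 (median -0.05), against 19 of 21 under vehicle (median 0.07) and 19 of 21 under fluoxetine (median 0.11). The endoplasmic reticulum disulfide isomerase Pdia4 averaged 960 in HT and 1113 in WT (-0.21 ± 0.10, adjusted p = 0.915), with 9 of 10 HT libraries below the WT mean of their sex. HT male 1, the library high in choroid plexus genes, was its highest HT value at 1276. The calcium-binding chaperone Calr averaged 9027 in HT and 9522 in WT (-0.08 ± 0.05). Of the 21 interaction tests against vehicle, 3 had an unadjusted limma p under 0.05, all lower under lithium, where 1.75% of all genes did. None was called.

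Immune and ribosomal lists leaned upward. Of 20 interferon response genes 17 lay above 0 (median 0.18), but their median was -0.01 in females and 0.36 in males. Ifit3b averaged 91.4 in HT and 69.5 in WT (0.46 ± 0.22) and the antiviral tether Bst2 83.3 in HT and 63.5 in WT (0.36 ± 0.18), both with an adjusted p of 0.915. Of 79 cytosolic ribosomal protein genes 70 lay above 0 (median 0.05), with 42 above 0 in females (median 0.004) and 76 in males (median 0.12). Of these 6 had an unadjusted limma p under 0.05, which is to be read beside 2.6% of all genes, and they include Rps29 (2794 in HT and 2442 in WT, 0.20 ± 0.076), Rplp1 (6218 in HT and 5422 in WT, 0.19 ± 0.085) and Rps28 (912 in HT and 826 in WT, 0.15 ± 0.066). Under vehicle 53 of the 79 lay above 0 and under fluoxetine 25. Left out in turn, the lithium libraries gave 61 to 73 above 0, and the summed counts overlapped, at 231700 to 279300 in HT and 220900 to 275400 in WT. Near-identical pseudogenes may take or lend reads to these genes, and the sources used here do not say how such reads were split. Of 14 microglial genes 13 lay above 0 (median 0.08), and 13 did under vehicle (median 0.12) and 10 under fluoxetine (median 0.02).

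Myelin genes lay above 0 in 17 of 18 cases (median 0.20), with like medians in females (0.19) and males (0.19), but none had an unadjusted p under 0.05. Mog, a protein of the outer myelin surface, averaged 1695 in HT and 1445 in WT (0.23 ± 0.16), and Mag, the myelin-associated glycoprotein, 3691 in HT and 3080 in WT (0.24 ± 0.19), each with an adjusted p of 0.937. The myelin median was 0.09 with the olfactory bulb covariate, 0.04 with all 3 tissue covariates and 0.09 without HT female 2 and HT male 1. Under vehicle 15 of the 18 lay above 0 (median 0.07) and under fluoxetine 17 (median 0.08).

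Neuronal lists were mixed. Deep-layer neuron genes lay above 0 in 2 of 14 cases (median -0.09), led by Ntsr1, which averaged 193 in HT and 239 in WT. Upper-layer genes lay above 0 in 8 of 12 cases (median 0.01), and GABA neuron genes in 9 of 20 (median -0.03). With the olfactory bulb covariate these medians were -0.02 for upper-layer and 0.05 for GABA neuron genes, and -0.04 for the presynaptic genes. All 20 presynaptic genes lay above 0 under vehicle and under fluoxetine, and 11 did under lithium (median 0.003, and 5 genes above 0 without HT female 4), where Cplx2, the complexin that clamps vesicle fusion, averaged 27926 in HT and 23841 in WT (0.23 ± 0.10, adjusted p = 0.915). Immediate early genes, which are induced by neuronal firing, lay above 0 in 3 of 20 cases (median -0.12, and 1 or 6 genes without WT female 4 or WT female 2), with medians of 0.13 in females and -0.36 in males and no unadjusted p under 0.05. Of 14 serotonin system genes 3 lay above 0 (median -0.07), against 2 under vehicle (median -0.09) and 7 under fluoxetine (median -0.02). The receptor gene Htr1b averaged 267 in HT and 326 in WT under lithium (-0.32 ± 0.11, adjusted p = 0.801). Of 18 immature neuron and proliferation genes 5 lay above 0 (median -0.10), against 2 under vehicle (median -0.08) and 6 under fluoxetine (median -0.10). In that list the axon guidance gene Draxin averaged 39.3 in HT and 67.1 in WT under lithium (-1.05 ± 0.38, adjusted p = 0.801). The lithium median of that list was -0.04 with the olfactory bulb covariate, and the part of olfactory bulb tissue in its values was not tested further.

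**Figure D5:**
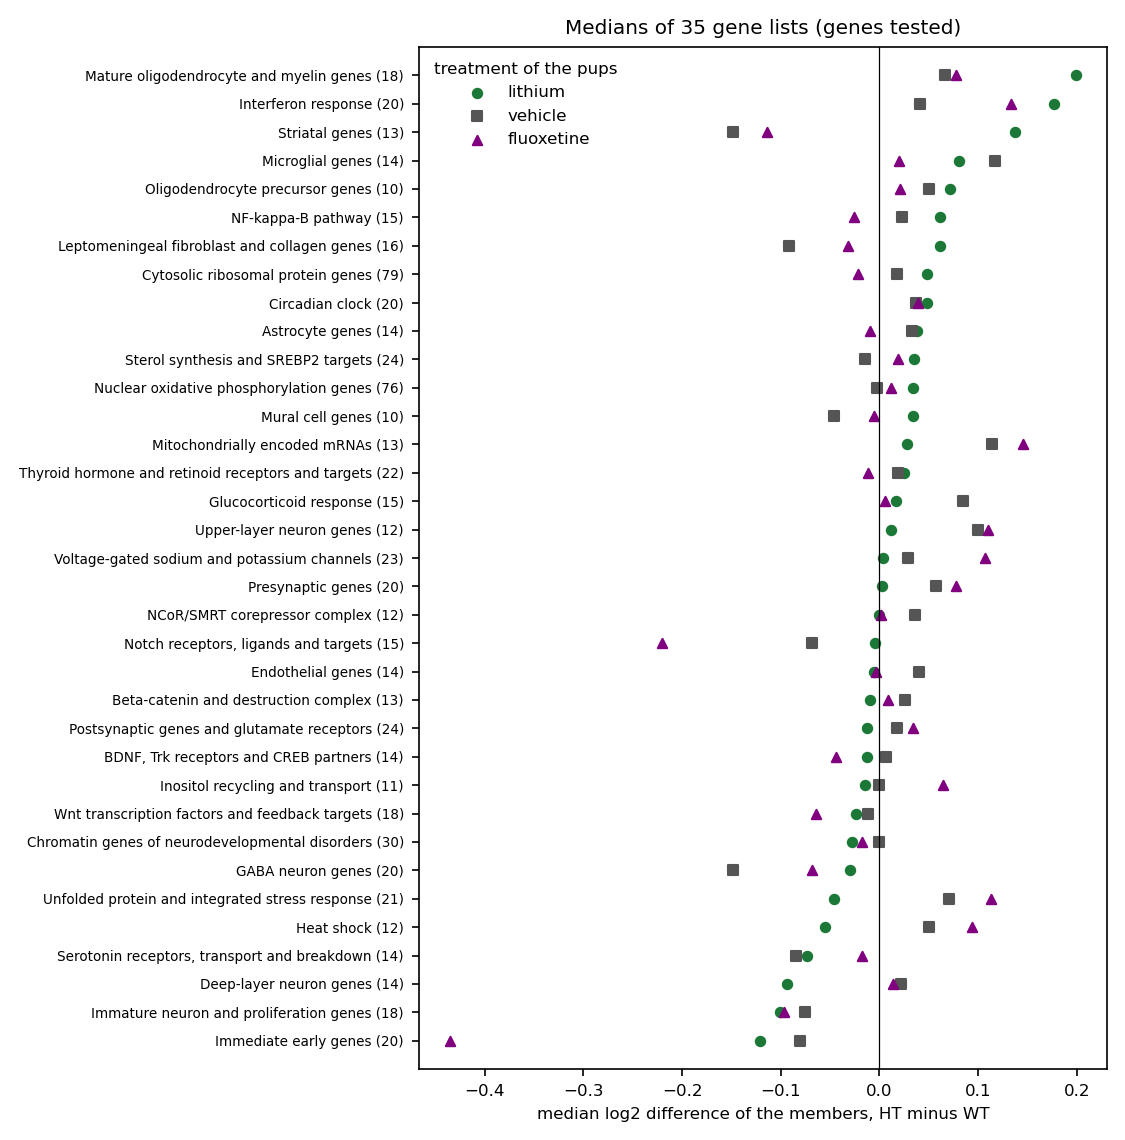
Median log2 difference between HT and WT of the tested members of 35 gene lists (number of genes in brackets) under lithium (green circles), vehicle (grey squares) and fluoxetine (purple triangles); olfactory bulb and choroid plexus genes, whose medians are -0.95 and 0.48 under lithium (0.11 for choroid plexus genes without HT male 1), are left out. Heat shock and unfolded protein genes are below 0 under lithium and above 0 under the other 2 treatments, and myelin genes are above 0 in all 3.

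The remaining lists held few genes near the threshold. Sterol synthesis genes lay above 0 in 19 of 24 cases (median 0.04), and Tm7sf2, a sterol reductase of cholesterol synthesis, averaged 507 in HT and 445 in WT, with all 10 HT libraries above the WT mean of their sex (0.19 ± 0.061, adjusted p = 0.691). With all 3 tissue covariates the sterol median was -0.02, and without HT male 1 or HT male 3 the count was 13. Chromatin genes of neurodevelopmental disorders lay above 0 in 5 of 30 cases (median -0.03), a count that was 16 without WT female 3 and 11 under upper-quartile rescaling, and the remodelling ATPase Smarca4 averaged 4337 in HT and 4535 in WT (-0.06 ± 0.032). Circadian clock genes lay above 0 in 14 of 20 cases (median 0.05), nuclear oxidative phosphorylation genes in 50 of 76 (median 0.03) and mitochondrially encoded mRNAs in 10 of 13 (median 0.03). The last count was 4 without WT male 1 (median -0.03) and 4 with the olfactory bulb covariate (median -0.04). Oligodendrocyte precursor genes lay above 0 in 9 of 10 cases (median 0.07), astrocyte genes in 9 of 14 (median 0.04) and leptomeningeal fibroblast and collagen genes in 14 of 16 (median 0.06), with 1 unadjusted p under 0.05 among the 3 lists. The median of the precursor genes was 0.03 without WT female 3 and -0.01 with all 3 tissue covariates. Postsynaptic genes and glutamate receptors lay above 0 in 6 of 24 cases (median -0.01, and above 0 under upper-quartile rescaling) and in 12 without HT female 2, with no unadjusted p under 0.05.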

How the data were processed

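The deposited table holds 18088 genes, of which 18077 matched GENCODE M21 annotation, and its values are a signal, made by the authors from gene read counts by dividing each library by its own size factor. The tools were Salmon 0.11.2, DESeq2 1.19.11 and R 3.6.0 on genome build GRCm38, as the submitters' processing notes give them, and per the labels' protocols the libraries came from the TruSeq Stranded mRNA kit, which keeps strand. Within each library all values fell on multiples of a single step (100% of values, tolerance 1e-04), so whole reads were recovered, 22.9 to 35 M of them in each. In 6 of the 58, 4 of them lithium libraries, that step lies within 1% of 1 read, where recovered and rounded values are hard to tell apart.

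Genes with a mean of at least 10 were tested with limma 3.58.1 (mean-variance trend, R 4.3.3) on log2(value + 1), with 12 group means and 46 residual degrees of freedom, females and males weighted equally, and Benjamini-Hochberg adjustment over all 16606 genes at 0.05. Groups came from the sample titles. Fold changes of low genes are understated by the pseudocount. Alternatives were other pseudocounts, minimum means and scalings, array weights, tissue covariates, a replicate block, libraries left out, and edgeR 4.0.16 and DESeq2 1.42.0 on the recovered reads. The fit was tested on simulated data.

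For lithium the text names the called genes and then, as values, the genes of smallest p in each direction with a mean of at least 50, up to 8 a direction, the 3 of smallest p in each other contrast, and the members of smallest p of the lists. The comparison, the genes and the lists were chosen with earlier results of these data known. Library sex matched the labels in 58 of 58 libraries, and no pair within a lithium group was a duplicate by a chi-square of reads (32 pairs, lowest ratio to its degrees of freedom 9.38). The value of 1 gene is not reported here.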

Additional observations from a re-analysis of the deposited data

Results flagged for a closer look

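Of 444 sets of 4 or 5 libraries read for a library far from the rest of its group, 32 were flagged, where chance flags about 1 in 20 sets. The groups are those of 1 genotype and sex under lithium, and the causes were not tested.

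WT female 3, with the highest olfactory bulb sum of the WT libraries (39430, next WT female 17890), stood apart in 8 genes. It was high in Lgr5 (1343), Dll1 (244.1), Hey2 (466.5), Dlx2 (767.9), Pygo1 (1490), Kcnd3 (3094) and 7530428D23Rik (18.78), and low in Uqcr10 (1293). HT male 2, with the highest olfactory bulb sum of the HT libraries (40160), was high in Dll1 (193.4), Hey2 (323), Htr5b (63.74) and Scn3a (2180), and low in Hsd11b1 (325.1), Egfl7 (482.3) and Pdyn (542.9). Both libraries were thus high in the Notch ligand gene Dll1 and the Notch target Hey2.

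HT male 1 was high in the choroid plexus sum (25760), in the choroid plexus genes Ttr (22670) and Kl (899.7), and in Rora (2033) and Pdia4 (1276), and low in Rab34 (341.1). HT female 2 was high in the striatal sum (28650) and in Plin4 (57.59). HT female 1 was low in Ccnd1 (1211) and Anpep (122.8), and HT female 3 was high in Smarca4 (4434). WT male 2 was high in Slco1a4 (1870) and Hspa8 (51980), and low in Ntsr1 (186.3). WT male 4 was high in Chd2 (2241) and low in Rps28 (667.9).

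The genotype effect on Gm15663 differed between treatments by limma's interaction test, with a log2 difference of -0.5547 between the effect under lithium and the effect under fluoxetine (adjusted p = 0.0131, and 0.0554 without WT male 3). All 10 HT lithium libraries lay below the WT mean of their sex.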

How the results depend on the processing

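Limits. Genes with a mean under 10 were not tested, and 22.9 to 35 M reads per library leave lists such as interferon genes with few reads a gene. The replicate spread is that of libraries whose litters are not given. Lists were described without a test, and differences in regional markers were followed only through the covariates below.

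Beside the values as reported, 35 alternatives were run, 18 of which left out 1 lithium library. Tbl1xr1 was called under each of them, with a log2 change of 0.24 to 0.28 over the libraries left out (adjusted p 2.49e-06 to 0.000246), and so was Gm43672. For HT against WT under lithium (2 genes called), array weights gave 4, the olfactory bulb covariate 5, DESeq2 7 and all 3 tissue covariates, an alternative chosen after seeing the data, 6, with 2 to 3 over the libraries left out. In females (1 gene), 0 were called under upper-quartile rescaling, median centring, only the groups of the comparison, the olfactory bulb covariate, all 3 tissue covariates, edgeR, and without HT female 2 and HT male 1 (also chosen after seeing the data), while DESeq2 called 4 and the libraries left out gave 0 to 1. In males (2 genes), median centring and only the groups of the comparison gave 0, DESeq2 4, and the libraries left out 0 to 2. DESeq2 called 1 gene for the sex difference (0 as reported) and 4 for lithium minus vehicle (0 as reported). For lithium minus fluoxetine (1 gene), array weights gave 40, DESeq2 36, the olfactory bulb covariate 4 and only the groups of the comparison 0, with 0 (without WT male 3) to 2 (without HT female 4 or WT male 2) over the libraries left out. The cause of these shifts was not tested.

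Of the log2 changes of single genes, 3 reversed, all with all 3 tissue covariates. They went to 0.00818 for Dlx2, -0.0929 for Ttr and -0.13 for Kl. Ttr and Kl belong to the choroid plexus list, from which 1 of the covariates was partly made. Their reversals are therefore no separate check of those 2 genes. Tbl1x was called under upper-quartile rescaling, array weights, the olfactory bulb covariate, all 3 tissue covariates and DESeq2, Lix1 under array weights (adjusted p = 0.0423) and DESeq2 (adjusted p = 0.0335), and Ccnd1 with the olfactory bulb covariate and with all 3 tissue covariates. The adjusted p of Gsta4 ran from 0.189 to 0.824 and that of Ccnd1 from 0.361 to 0.824 over the libraries left out. The sign of the list medians changed for 7 of 37 lists under upper-quartile rescaling, and, leaving aside the lists the covariates were made from, for 11 of 36 with the olfactory bulb covariate and 13 of 33 with all 3 tissue covariates.

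HT and WT libraries share replicate numbers, and the labels do not say whether these pair them. The correlation of same-numbered libraries ran from -0.488 to 0.223 over 8 numbers. Of the 8, 2 correlated best with their own number among the 4 WT libraries of their sex. Differences in regional markers between libraries enter these correlations, so they cannot show whether the numbers pair the libraries. With the number as a block, 3 genes were called between HT and WT under lithium, the third being Lix1 (adjusted p = 0.0496). These are the numbers of the sample titles. The library names number WT males 3 and 4 as 4 and 5, and by them the male correlations ran from -0.488 to -0.0659, while a block on those numbers, chosen after seeing the data, called 2 genes.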
